A study of Mus musculus with 50 samples.

Results

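The genes described here are 43 heat shock proteins, co-chaperones and heat shock transcription factors. They come from 55414 gene rows each for quadriceps and perigonadal white adipose tissue (pgWAT) at 1 h, and 55401 for pgWAT at 6 h. They were chosen by symbol, with earlier results of these data known. They fall into 8 families: 7 cytosolic HSP70 and HSP110 genes, 6 genes of HSP90 and its co-chaperones, 7 small heat shock proteins, 8 DNAJ genes of cytosol and nucleus, 5 mitochondrial and 5 endoplasmic reticulum (ER) chaperones, 3 BAG genes and 2 heat shock factors. All 50 libraries came from male mice that carried hM3DGq, a designer receptor, and all mice had received its drug clozapine N-oxide (CNO), which excites neurons that bear the receptor, at 1 mg/kg. TG mice were positive for Gfral-Cre and WT mice were negative, so the receptor was directed to neurons that express Gfral, a hindbrain receptor of the hormone GDF15, and every comparison is of TG with WT under CNO. The groups were quadriceps of clamped mice (10 WT, 10 TG), pgWAT 1 h after CNO (9 WT, 9 TG) and pgWAT 6 h after CNO (6 WT, 6 TG). These tissues were chosen by the submitters because their glucose uptake had gone down (quadriceps) or up (pgWAT) with activation of the neurons. The mice's ages and strain are not stated in the sources. Since no label says that each replicate was a separate mouse, a p-value here covers only the spread from library to library, which may be technical.

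Heat shock proteins are molecular chaperones. HSP70 proteins hold unfolded stretches of other proteins, J-domain proteins (the DNAJ genes) bring them substrates and start their ATP cycle, and HSP110 and BAG proteins exchange the spent nucleotide. HSP90 finishes the folding of kinases and steroid receptors with its own co-chaperones, and small heat shock proteins keep unfolded proteins from clumping without using ATP. When proteins unfold, the transcription factor HSF1 binds heat shock elements, inverted repeats of GAA, and switches on the inducible members, among them Hspa1a, Hspa1b, Dnajb1 and Hsph1. Several small heat shock proteins are abundant in striated muscle, where they protect the contractile filaments.

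The promoters of 6 members are printed here: 5 of the 8 that passed the test in pgWAT, and Hspa1a for comparison with its near copy Hspa1b. Of the other 3, Dnaja2 and Hspa2 had 0 matches to the motif below and Bag3 had 1 in the full window, so the printed set is richer in matches than the 8 called members, of which 5 hold one. RefSeq promoters (build GRCm38.p6, from 250 bases before to 50 after a transcription start) were matched to 35 of the 43 members. Where a member had more than 1 listed start, the window with most matches is printed, so that choice depended on the matches. The other Dnaja4 window (chr9:54699033-54699332) had 0 matches, as did the other Dnajb1 window. Each line runs 5′ to 3′ from 150 bases before to 30 after the start, with capitals for matches to GAANNTTC or TTCNNGAA, 2 facing units of a heat shock element. The windows are chr17:34972127-34972306 (minus strand), chr17:34959209-34959388 (minus), chr8:83608025-83608204 (plus), chr9:54699409-54699588 (plus), chr5:135887769-135887948 (plus) and chr9:18292117-18292296 (plus).
Hspa1a: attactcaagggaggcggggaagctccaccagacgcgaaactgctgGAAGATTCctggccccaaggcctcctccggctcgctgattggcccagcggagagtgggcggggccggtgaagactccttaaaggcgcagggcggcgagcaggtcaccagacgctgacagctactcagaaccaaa
Hspa1b: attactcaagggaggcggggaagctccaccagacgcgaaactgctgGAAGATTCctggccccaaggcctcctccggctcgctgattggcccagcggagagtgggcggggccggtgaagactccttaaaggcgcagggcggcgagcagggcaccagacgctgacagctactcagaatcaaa
Dnajb1: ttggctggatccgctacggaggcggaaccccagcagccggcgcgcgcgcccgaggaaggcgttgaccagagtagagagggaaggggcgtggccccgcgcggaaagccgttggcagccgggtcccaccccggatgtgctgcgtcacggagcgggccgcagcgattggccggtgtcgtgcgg
Dnaja4: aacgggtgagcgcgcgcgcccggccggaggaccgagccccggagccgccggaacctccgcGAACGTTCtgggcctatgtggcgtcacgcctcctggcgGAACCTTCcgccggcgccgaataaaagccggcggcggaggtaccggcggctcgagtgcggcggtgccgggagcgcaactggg
Hspb1: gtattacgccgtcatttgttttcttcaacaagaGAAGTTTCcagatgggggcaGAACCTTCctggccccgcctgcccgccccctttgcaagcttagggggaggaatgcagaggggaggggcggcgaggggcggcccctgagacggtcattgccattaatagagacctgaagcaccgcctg
Chordc1: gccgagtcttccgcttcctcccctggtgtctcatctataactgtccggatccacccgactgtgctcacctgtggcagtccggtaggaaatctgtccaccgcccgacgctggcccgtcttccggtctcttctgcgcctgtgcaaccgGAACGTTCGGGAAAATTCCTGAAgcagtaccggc
In Chordc1 the capitals are 4 overlapping matches between 4 bases before and 19 after the start, and another match lies 34 to 41 bases after it. Hspa1a and Hspa1b have the same base at 296 of 300 positions of the full promoter window and share their match, at 104 to 97 bases before the start. The Dnajb1 window holds none, which says only that these letters are not in it. Both forms read the same on either strand. At least 1 match was in 17 of the 47 promoters listed for members (36.2%), which belong to 15 of the 35 genes, against 15.1% of all 32851 promoters. The form with 3 units, GAANNTTCNNGAA or TTCNNGAANNTTC, which contains 2 of the shorter matches, was in 7 member promoters (14.9%) of 5 genes, namely Chordc1, Dnajb6, Hspd1, Hspe1 and Hsph1, against 0.603% of all promoters. The windows of Hspd1 and Hspe1 overlap, because their annotated starts lie 111 bases apart on opposite strands. A match is a description of letters, not of binding. In GENCODE vM21, exons of Dnaja4 overlap those of Wdr61, and exons of Hspa1a those of Gm20481, on the other strand, so counts of each pair may be mixed.

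Depth, as counts summed over genes, was 959980 to 2613672 for quadriceps, 976610 to 4852560 for the 1 h set and 9150496 to 12883462 for the 6 h set. Levels are given as CPM, a gene's counts relative to the scaled library total. The tissue labels matched their markers: 6 skeletal muscle markers summed to 21298 to 33830 CPM in quadriceps, and 6 adipocyte markers to 9481 to 22281 CPM in pgWAT at 1 h and 30126 to 50783 CPM at 6 h. Changes are log2 of TG over WT with their standard error (SE) from edgeR's quasi-likelihood test, adjusted with Benjamini-Hochberg over all genes tested in a set, and a member is called when the adjusted p is under 0.05. In whole tissue, fewer cells of a type and less RNA per cell cannot be told apart.

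In pgWAT 6 h after CNO, 6 members rose and 2 fell in TG. The J-domain genes Dnajb1, Dnaja4 and Dnaja2, the HSP70 gene Hspa2, the small heat shock gene Hspb1 and the exchange factor Bag3 were higher, while the HSP90 co-chaperone Chordc1 and the inducible HSP70 gene Hspa1b were lower. These 8 were 19% of the 42 members tested, against 14.4% of all 14359 genes (6.88% called higher and 7.54% called lower). The median log2 change was 0.07 over members and 0.00 over all genes, and 10 of 42 members lay below 0 (23.8%, against 49.8% of genes). Without a scaling factor beyond the library total, 2 members were called higher and 3 lower, 21 of 42 lay below 0, and the split over all genes went from 988 higher and 1083 lower to 665 and 1457.

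**Figure D1:**
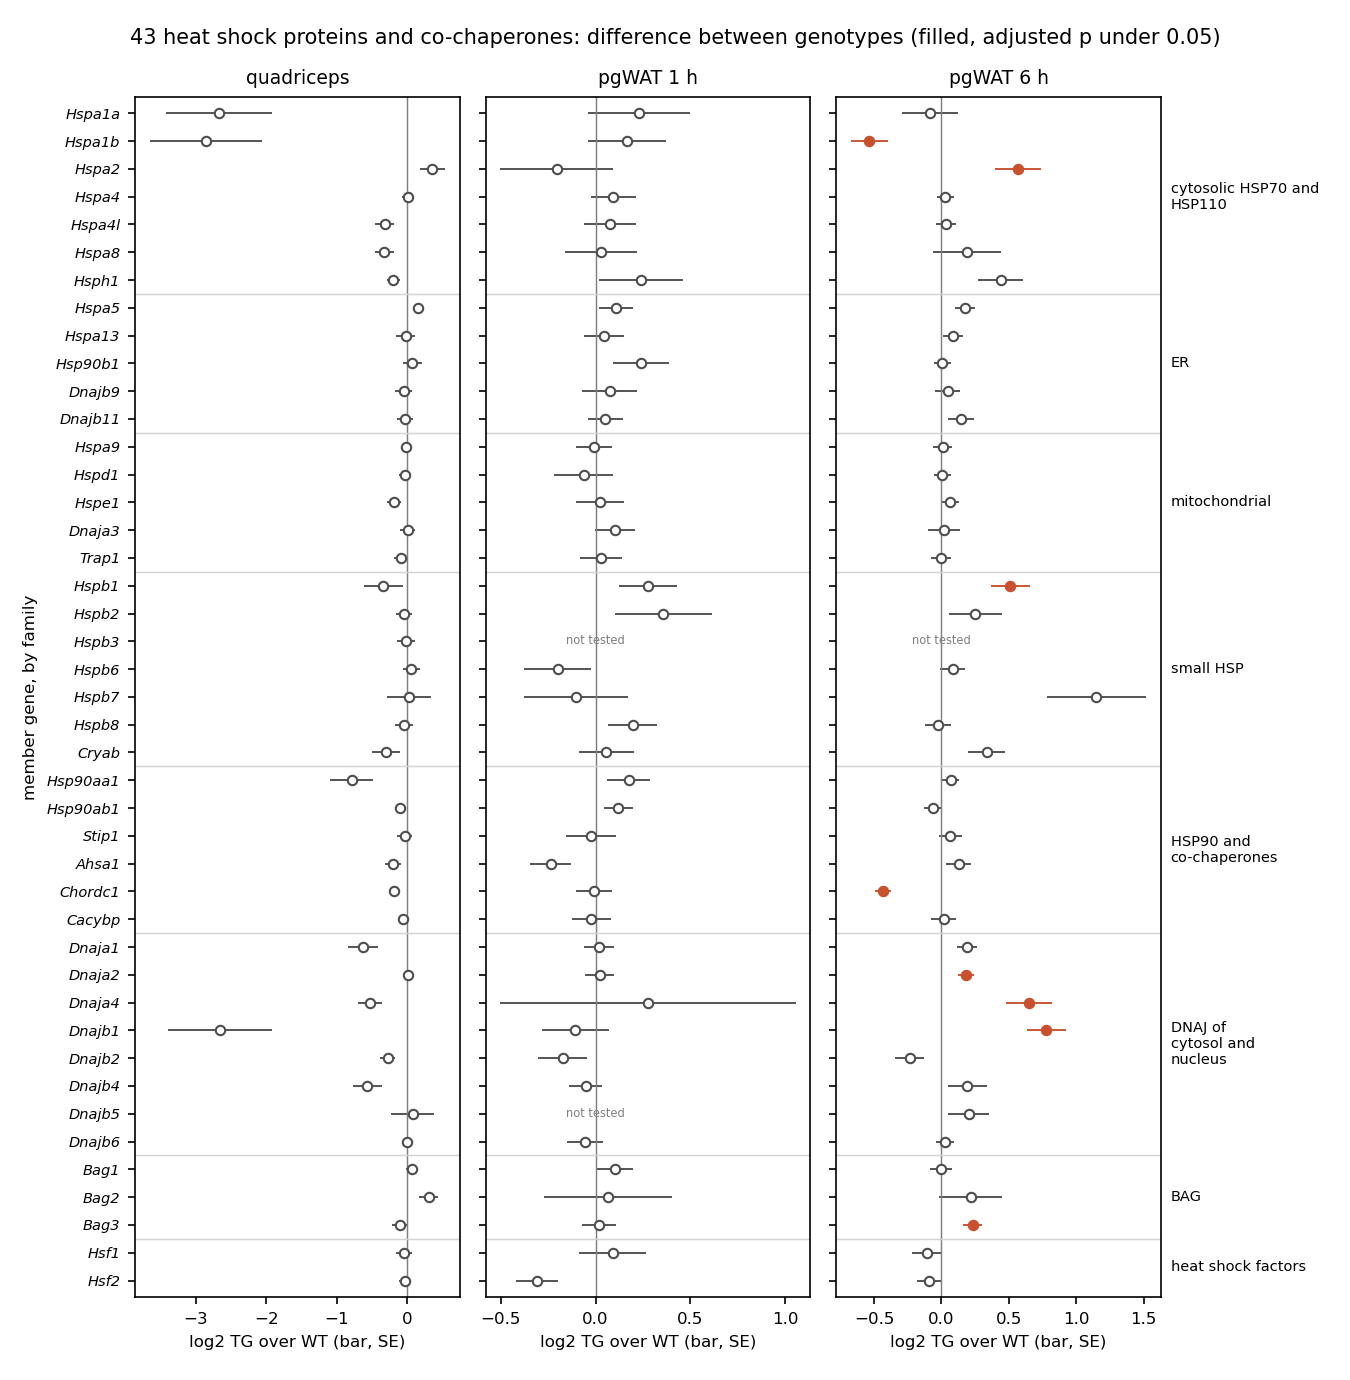
Log2 of TG over WT (horizontal axis, bar SE) of each of the 43 members (vertical axis, by family) in quadriceps, pgWAT 1 h and pgWAT 6 h, each panel with its own scale. Filled points have an adjusted p under 0.05 and are all in the 6 h panel, while in quadriceps Hspa1a, Hspa1b and Dnajb1 lie between -2.86 and -2.66 with wide bars.

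Dnajb1, the inducible J-domain partner of HSP70 (ENSMUSG00000005483, chr8:83608193-83612653 in GENCODE vM21 on GRCm38), ran from 23.9 to 35.2 CPM in WT with a median of 28.9, and from 41.2 to 74.9 CPM in TG with a median of 46.1. The genotypes did not overlap, and TG 5 stood above the other TG libraries, which reached 51.7 CPM. Its log2 change was 0.78 (SE 0.14) with an adjusted p of 0.00159, and 6 of 6 TG libraries lay above the WT mean. Across the leave-one-out fits the change stayed between 0.63 and 0.84, with TG 5 left out in one of them, and the call was kept in 12 of 12.

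Dnaja4, another cytosolic J-domain protein, had 6.15 to 12.2 CPM in WT (median 7.20) and 9.95 to 16.0 CPM in TG (median 12.3), a log2 change of 0.65 (SE 0.17, adjusted p = 0.0148). A single WT library reached into the TG range. Dnaja2, a constitutive J-domain protein, went from 126 to 139 CPM in WT (median 135) to 137 to 163 CPM in TG (median 155), a change of 0.18 (SE 0.06, adjusted p = 0.0420) with ranges that met at their ends. The other 5 DNAJ genes of cytosol and nucleus were not called. Of them Dnaja1 had a log2 change of 0.19 (adjusted p = 0.0948) and Dnajb2, a neuronal J-domain protein, one of -0.24 (adjusted p = 0.152).

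Among the cytosolic HSP70 genes the direction was mixed. Hspa2, an HSP70 best known from testis, ran from 6.21 to 13.9 CPM in WT (median 9.72) and from 12.1 to 16.6 CPM in TG (median 14.1), a log2 change of 0.57 (SE 0.17, adjusted p = 0.0317), with 1 WT library inside the TG range. Hspa1b (ENSMUSG00000090877, chr17:34956436-34959238) ran from 8.58 to 11.6 CPM in WT (median 9.73) and from 5.4 to 7.95 CPM in TG (median 6.75), a change of -0.53 (SE 0.14, adjusted p = 0.0120). All 6 TG libraries lay below all 6 WT libraries for Hspa1b. Its near copy Hspa1a (ENSMUSG00000091971, chr17:34969190-34972156) ran from 4.25 to 8.67 CPM in WT (median 5.37) and from 4.23 to 7.49 CPM in TG (median 5.11), a change of -0.09 (SE 0.21, adjusted p = 0.831), and the ranges covered each other. With both genes summed the change was -0.35 (SE 0.14, adjusted p = 0.0983) and the call was lost. Their annotated transcripts have the same base in 87.4% of aligned columns, with an identical stretch of 638 bases, but in 49.7% of the last 300 columns, so reads outside the 3′ end may be split between them. Hsph1, the inducible HSP110 gene, ran from 12.1 to 19.3 CPM in WT (median 15.6) and from 14.2 to 32.0 CPM in TG (median 19.1), a change of 0.44 (SE 0.17, adjusted p = 0.0996) that was not called. Hspa4, Hspa4l and the constitutive Hspa8 had changes of 0.03, 0.03 and 0.19, none of them called.

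Chordc1 (ENSMUSG00000001774, chr9:18292125-18317442), which binds HSP90 through its CHORD domains, had the smallest p of all members. Its level ran from 50.3 to 53.3 CPM in WT (median 51.9) and from 36.7 to 41.4 CPM in TG (median 37.3), with a gap between the genotypes wider than either range. The log2 change was -0.43 (SE 0.06) with an adjusted p of 8.33e-05, and 6 of 6 TG libraries lay below the WT mean. The rest of its family, Hsp90aa1, Hsp90ab1, Stip1, Ahsa1 and Cacybp, had changes from -0.06 to 0.13 with no call. Chordc1 and Dnajb1 thus moved in opposite directions in the same libraries.

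**Figure D2:**
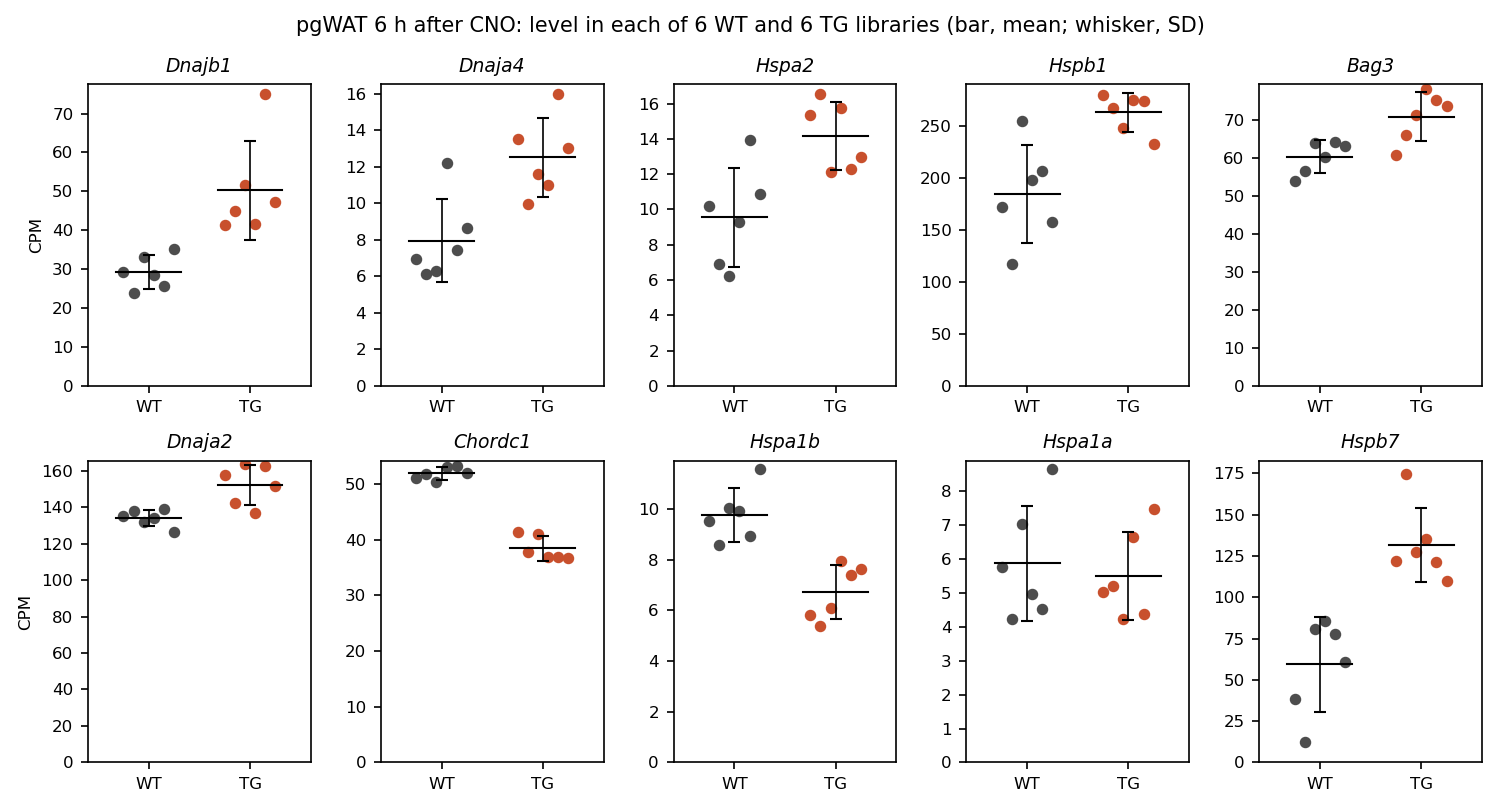
Level in CPM (vertical axis from 0) of the 8 called members, Hspa1a and Hspb7 in each of 6 WT and 6 TG libraries of pgWAT 6 h after CNO, with the group mean (bar) and SD (whisker). The genotypes do not overlap in Dnajb1, Chordc1, Hspa1b and Hspb7, and the Hspa1a points cover the same range.

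Of the small heat shock genes 1 of 6 tested was called at 6 h, and of the BAG genes 1 of 3. Hspb1, an inducible chaperone of actin filaments, ran from 118 to 255 CPM in WT (median 185) and from 232 to 280 CPM in TG (median 270), a log2 change of 0.51 (SE 0.14, adjusted p = 0.0270), with 1 WT library inside the TG range. Bag3, which couples HSP70 to small heat shock proteins and to autophagy, ran from 54 to 64.3 CPM in WT (median 61.9) and from 60.9 to 78.3 CPM in TG (median 72.7), a change of 0.23 (SE 0.07, adjusted p = 0.0381) with overlapping ranges. Hspb7, a muscle-enriched member named here because its ranges did not overlap, had 12.7 to 85.9 CPM in WT (median 69.4) and 110 to 174 CPM in TG (median 125). Its change of 1.15 (SE 0.37) had an adjusted p of 0.0658 with edgeR and 0.0178 with DESeq2. Non-overlapping ranges were found for 4 of 42 members (9.52%), Dnajb1, Hspa1b, Chordc1 and Hspb7, against 7.68% of all genes. Cryab, the lens and muscle crystallin, had a change of 0.34 (adjusted p = 0.123), and Hspb2, Hspb6 and Hspb8 had 0.25, 0.08 and -0.03. Hspb3 had 1 count in all 12 libraries and was not tested.

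The 6 skeletal muscle markers summed to 22.7 to 51 CPM in WT and 61.5 to 121 CPM in TG. This difference was that of 1 marker, the actin gene Acta1, whose level was 34.1 ± 11.8 CPM in the WT and 81.6 ± 22.6 CPM in the TG libraries (SD, n = 6 each). Its edgeR adjusted p was 0.00602. Mylpf had means of 1.75 and 1.64 CPM in WT and TG (adjusted p = 0.894), Tnnt3, Mb and Ckm had means under 1 CPM in both genotypes, and Atp2a1 had 0 counts in WT. The part of this difference in the small heat shock values was not tested.

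The mitochondrial, ER and heat shock factor families had 0 of 5, 0 of 5 and 0 of 2 members called at 6 h with edgeR, and 0 with DESeq2. An unadjusted p under 0.05 was found in 1 of these 12 members, Hspa5, the major ER chaperone, at 0.18 (adjusted p = 0.121). The mitochondrial genes Hspa9, Hspd1, Hspe1, Dnaja3 and Trap1 had changes from -0.0014 (Trap1) to 0.06 (Hspe1). Hsf1, the master heat shock factor, ran from 17.4 to 23.9 CPM in WT (median 21.1) and from 16.2 to 23.1 CPM in TG (median 18.6), a change of -0.11 (SE 0.11, adjusted p = 0.562). Hsf2, its relative in development, had 22.8 to 27.2 CPM in WT and 20.7 to 27.1 CPM in TG, a change of -0.09 (adjusted p = 0.546). Levels of both factors overlapped between the genotypes, and transcript levels do not show their activity.

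Calls at 6 h differed in how they held when a library was left out. Chordc1, Dnaja4, Dnajb1 and Hspa1b were called in all 12 such fits. Hspb1 was lost without any 1 of WT 1, WT 6, TG 1, TG 4 or TG 5 (adjusted p up to 0.0596), and Hspa2 without WT 1, WT 2, WT 3, WT 4, TG 2 or TG 4 (up to 0.0699). Bag3 was lost without WT 1, WT 2, WT 4, TG 3, TG 4, TG 5 or TG 6 (up to 0.0949). Dnaja2 was lost in 9 of 12 fits, kept without WT 2, TG 2 or TG 4, with an adjusted p up to 0.0935. Members gained were Cryab without WT 3, Hspb7 without WT 2, and Hspa5 and Hsph1 without TG 4. TG 2 also had the highest liver marker sum of this set, 1455 CPM against 42.2 to 81 CPM in the other libraries, and without it 7 of 42 members were called (16.7%, against 12.8% of genes), Hspa2 being the one lost.

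Other chaperone genes at 6 h were read from 7 lists of the machinery around these members. Together 9 of 93 tested genes were called (9.68%), against 14.4% of all genes. The chaperonin CCT list had 0 of 8 and the prefoldin list 0 of 6 called with edgeR, with 2 and 0 at an unadjusted p under 0.05 and 1 and 0 called by DESeq2. Cct2, a subunit of that actin and tubulin folding ring, was at 0.16 (SE 0.06, adjusted p = 0.0639). Of 17 other co-chaperones of HSP90 and HSP70, 2 rose: Fkbp5, a brake on the glucocorticoid receptor, at 3.08 (SE 0.14, adjusted p = 3.97e-09) and the phosphatase Ppp5c at 0.36 (SE 0.08, adjusted p = 0.00525). Of 21 DNAJC genes, Dnajc25 rose by 0.42 (adjusted p = 0.000104) and Dnajc5, the synaptic vesicle J-domain protein, by 0.19 (adjusted p = 0.0371). In the list of 20 ER folding and unfolded protein response genes 1 rose and 2 fell: the stress transcription factor Atf4 at 0.26 (adjusted p = 0.0454), against Ddit3 at -0.68 (adjusted p = 0.00497) and Creld2 at -0.46 (adjusted p = 0.0252). The mitochondrial unfoldase gene Clpx rose by 0.42 (adjusted p = 0.00746) among 9 mitochondrial folding genes. Bag4 fell, at -0.53 (adjusted p = 0.0123), among 12 tested of 13 further HSP70, small heat shock, BAG, ubiquitin and HSF regulator genes. In quadriceps and in pgWAT at 1 h no gene of these lists was called with edgeR or DESeq2. An unadjusted p under 0.05 was found in 11 of 82 (13.4%, against 11.7% of genes) and in 5 of 91 (5.49%, against 4.62%).

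In quadriceps no member was called with edgeR, against 2.03% of all 8070 genes. Hspa1a, Hspa1b and Dnajb1 had the changes farthest from 0 and the largest SEs. An unadjusted p under 0.05 was found for 15 of 43 members (34.9%), against 11.7% of all genes, and 31 of 43 members lay below 0 (72.1%, against 51% of genes) with a median of -0.05. DESeq2 called 3 members lower, against 2.28% of genes called in either direction. They were Hspa1b (DESeq2 log2 change -2.88, adjusted p = 0.00270), Dnajb1 (-1.59, adjusted p = 0.00933) and Dnaja1 (-0.63, adjusted p = 0.0378). For Dnajb1 the edgeR change was farther from 0, at -2.66. No member had ranges that did not overlap, a pattern found in 0.297% of genes.

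The inducible genes were high in the WT libraries of replicates 2 and 10. Hspa1a had 1168 and 639 CPM there, against 19.6 to 102 CPM in the other 8 WT libraries and 16.9 to 60.9 CPM in TG (medians 82 in all WT and 31.9 in TG). Hspa1b had 1174 and 768 CPM, against 13.4 to 136 CPM in the other WT and 10.2 to 70.4 CPM in TG (medians 75.3 and 32.2). Dnajb1 had 453 and 158 CPM, against 16.5 to 42.4 CPM in the other WT and 5.53 to 19.6 CPM in TG (medians 24.5 and 12.5). These 2 libraries carried most of the WT mean of all 3 genes. Hspa1a had a log2 change of -2.67 (SE 0.76, adjusted p = 0.0846). The change was -2.86 (SE 0.80, adjusted p = 0.0772) for Hspa1b and -2.66 (SE 0.74, adjusted p = 0.0772) for Dnajb1. For each gene 10 of 10 TG libraries lay below the WT mean, but so did the other 8 WT libraries. That count therefore does not separate the genotypes.

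These 2 libraries were singled out because those 3 genes are high in them, so what follows describes them and tests nothing. They were the highest of all 20 in 11 of 43 members (25.6%), against 152 of 8070 genes (1.88%). Leaving out those 3 genes, they were highest in 8 of 40 members, against 149 of 8067 genes. The 11 were Hspa1a, Hspa1b, Hspa4, Dnajb1, Dnaja1, Dnaja4, Dnajb4, Hsp90aa1, Hspb1, Cryab and Hspe1, which span every family but the ER chaperones, BAG genes and heat shock factors. Hsp90aa1, the inducible HSP90, had 460 and 207 CPM in them, against 74.3 to 141 CPM in the other WT libraries and 55.1 to 113 CPM in TG. Cryab had 1976 and 1446 CPM, against at most 892 CPM in the other WT and 985 CPM in TG. Dnaja4 had 155 and 127 CPM, against 53.7 to 78.7 CPM in the other WT and 44.0 to 65.9 CPM in TG (medians 68.9 and 55.7), a change of -0.53 (SE 0.17, adjusted p = 0.123). Hsph1 was also highest in these 2 among WT, but not above all TG libraries. It ran from 104 to 154 CPM in WT (median 130) and from 86.9 to 152 CPM in TG (median 114), a change of -0.20 (SE 0.09, adjusted p = 0.381). Bag3 had 723 CPM in WT 2 and 458 CPM in WT 10, the other WT libraries had 312 to 443 CPM and TG had 321 to 480 CPM. Its change was -0.10 (SE 0.11, adjusted p = 0.842). WT 2 was also the library with liver markers, 250 CPM summed against at most 3.91 CPM in the other 19, whereas WT 10 had 1.69 CPM. The part of these markers in the result was not tested.

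**Figure D3:**
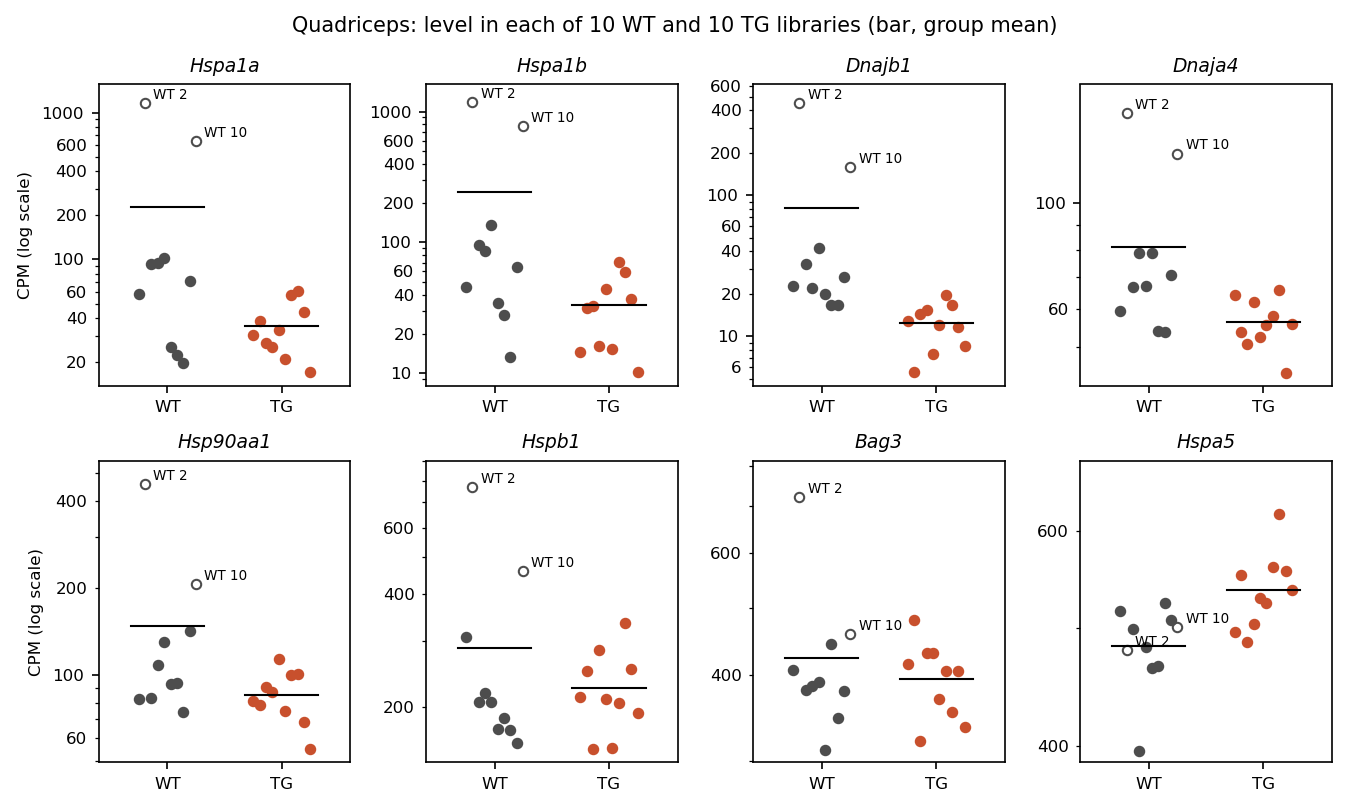
Level in CPM (vertical axis, log scale) of 8 members in each of 10 WT and 10 TG quadriceps libraries, with the group mean as a bar and open points for WT 2 and WT 10. Both open points lie above the other libraries in Hspa1a, Hspa1b, Dnajb1, Dnaja4, Hsp90aa1 and Hspb1, but not in Hspa5.

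Without WT 2 and WT 10, an alternative chosen after these values were seen, 8 WT stood against 10 TG libraries and 1 of 43 members was called (2.33%), against 1.84% of genes. The called member was Dnajb1, lower in TG with a log2 change of -0.98 (SE 0.20, adjusted p = 0.00405). WT 2 and WT 10 were singled out for their high Dnajb1, Hspa1a and Hspa1b. The changes, SEs and p-values of these genes without them therefore depend on that choice. Hspa1a was at -0.76 (SE 0.36, adjusted p = 0.438) and Hspa1b at -0.91 (SE 0.43, adjusted p = 0.437), neither called. An unadjusted p under 0.05 remained common, in 10 of 43 members (23.3%) against 11.3% of genes, while 23 of 43 lay below 0 with a median of -0.01. Leaving out WT 6 alone called Hspa1a (adjusted p = 0.0495), and no other single library changed a call.

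By family, the small heat shock, mitochondrial and heat shock factor genes had 0 of 7, 0 of 5 and 0 of 2 members with an unadjusted p under 0.05 in quadriceps. The cytosolic HSP70 and HSP110 genes had 6 of 7 (85.7%) and the cytosolic DNAJ genes 5 of 8 (62.5%), against 11.7% of all genes. All of these were lower in TG except Hspa2. Without WT 2 and WT 10, only Hspa1a, Hspa1b and Hspa8 of the HSP70 and HSP110 genes stayed under 0.05. Of the DNAJ genes, Dnaja1, Dnaja4, Dnajb1, Dnajb2 and Dnajb4 did. Hspa5 was higher in 10 of 10 TG libraries than the WT mean, from 396 to 524 CPM in WT (median 490) to 486 to 620 CPM in TG (median 533), at 0.15 (SE 0.06, adjusted p = 0.232). Hspa2 and Bag2 also had positive values, 0.36 (adjusted p = 0.426) and 0.31 (adjusted p = 0.318), and Hsf1 was at -0.05 (SE 0.11, adjusted p = 0.934) with 21.2 to 34.6 CPM in WT and 20.1 to 33.2 CPM in TG. All these ranges overlapped between the genotypes.

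In pgWAT 1 h after CNO no member was called with edgeR or DESeq2, where 0.0722% of all 11087 genes were called with edgeR. Of the 41 members tested, 2 had an unadjusted p under 0.05, against 4.62% of genes, and 14 of 41 lay below 0 (34.1%, against 47.3% of genes) with a median of 0.04. Hsf2 ran from 39.3 to 70.8 CPM in WT (median 56.8) and from 37.5 to 54.4 CPM in TG (median 46.9), a log2 change of -0.31 (SE 0.11, adjusted p = 0.928). Ahsa1, the activator of the HSP90 ATPase, ran from 27.3 to 41.0 CPM in WT (median 34.4) and from 24.3 to 34.5 CPM in TG (median 29.7), a change of -0.24 (SE 0.11, adjusted p = 1.00). All 9 TG libraries lay below the WT mean for both genes, yet the ranges overlapped. Hspb1 had the next smallest p, with 48.8 to 123 CPM in WT (median 70.2) and 65.8 to 117 CPM in TG (median 91.6), a change of 0.28 (SE 0.15, adjusted p = 1.00). No member had ranges that did not overlap, as in 0.018% of genes.

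The inducible members overlapped between the genotypes at 1 h. Dnajb1 ran from 22.9 to 60.4 CPM in WT (median 45.6) and from 26.8 to 63.4 CPM in TG (median 38.5), Hspa1a from 2.67 to 11.5 and from 4.21 to 13.9 CPM (medians 7.30 and 8.53) and Hspa1b from 12.7 to 31.0 and from 9.73 to 30.8 CPM (medians 17.7 and 20.4). Their changes were -0.11 (SE 0.18), 0.23 (SE 0.27) and 0.17 (SE 0.20). Hsph1 had a change of 0.24 (SE 0.22), Bag3 0.02 (SE 0.09), Hsf1 0.09 (SE 0.18) and Chordc1 -0.01 (SE 0.10), all with adjusted p = 1.00. All of these ranges overlapped between the genotypes. Dnajb5 (157 counts in all) and Hspb3 (2 counts) did not pass the filter on low counts.

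Dnaja4 was the most uneven member at 1 h. It had 83.7 CPM in WT 2, 170 CPM in WT 9, 141 CPM in TG 4 and 189 CPM in TG 6, against 9.57 to 18.7 CPM in the other 14 libraries. The same 4 libraries had the highest sums of the duct epithelium markers Lrp2 and Cldn10, 116, 230, 308 and 264 CPM, against 2.36 to 43.2 CPM elsewhere. Hspa2 was highest in 3 of them, at 78.1 CPM in WT 9, 37 CPM in TG 6 and 35.5 CPM in TG 4, and WT 2 followed at 26.1 CPM. Both genotypes held 2 such libraries, and the change of Dnaja4 was 0.28 (SE 0.78). Without the 9 libraries that held liver or duct markers (200 CPM or more of liver or 100 CPM or more of duct markers), 3 WT and 6 TG libraries remained, no member was called with edgeR, as against 0.00917% of genes, and the Dnaja4 change was 0.07 (SE 0.22). In that fit 1 of 41 members had an unadjusted p under 0.05 (2.44%), against 3.52% of genes. This member was Hspb1, whose change was 0.67 (SE 0.19, adjusted p = 0.783) there, against 0.28 over all 18 libraries. At 6 h the duct markers summed to 4.11 to 19.3 CPM in all 12 libraries.

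**Figure D4:**
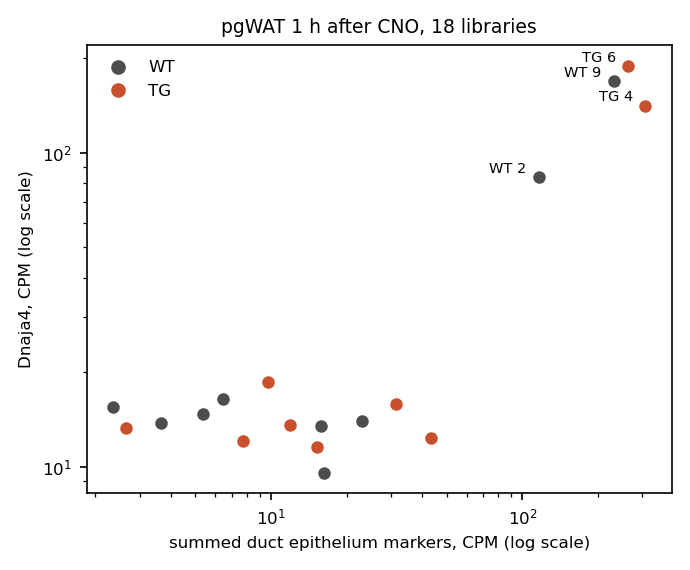
Dnaja4 (vertical axis, CPM, log scale) against the summed duct epithelium markers Lrp2 and Cldn10 (horizontal axis, CPM, log scale) in the 18 libraries of pgWAT 1 h after CNO. The 4 named libraries lie apart, from 83.7 CPM of Dnaja4 upward, and the other 14 lie between 9.57 and 18.7 CPM at any marker level up to 43.2 CPM.

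The interaction of genotype with time was fitted for pgWAT, in which kit and time cannot be told apart. Of 42 members 2 were called (4.76%), against 4.21% of 13022 genes. The difference for Dnajb1 was 0.89 (SE 0.25, adjusted p = 0.0323), from a TG over WT change of -0.11 at 1 h to 0.78 at 6 h. For Chordc1 it was -0.42 (SE 0.12, adjusted p = 0.0466), from -0.01 to -0.43. Dnajb1 was kept in 23 of 30 fits that left out 1 library and lost (adjusted p up to 0.0783) without WT 1, WT 2, WT 4, WT 5, TG 3 or TG 5 of the 6 h set or WT 5 of the 1 h set. Chordc1 was kept in 9 of 30 and reached an adjusted p of 0.0822: it was kept without TG 1 or TG 3 of the 6 h set and without WT 1, WT 2, TG 3, TG 4, TG 6, TG 8 or TG 9 of the 1 h set. Without the libraries that held liver or duct markers in both sets, neither was called (adjusted p = 0.191 for Dnajb1 and 0.143 for Chordc1). For Hspa1b the difference was -0.70 (SE 0.27, adjusted p = 0.164) and for Dnaja4 0.37 (SE 0.97, adjusted p = 0.920), so a difference between times was not shown for them.

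Between pgWAT at 6 h and quadriceps, where tissue, clamp, kit and time all differ, the genotype difference was called different for 3 of 43 members (6.98%), against 5.06% of 10729 genes. It was higher in pgWAT by 3.41 for Dnajb1 (SE 0.82, adjusted p = 0.00914), by 1.16 for Dnaja4 (SE 0.25, adjusted p = 0.00305) and by 0.61 for Hsph1 (SE 0.18, adjusted p = 0.0326). Without the quadriceps libraries WT 2 and WT 10 and the 6 h library TG 2, the differences were 1.77 (adjusted p = 1.90e-05), 0.94 (adjusted p = 0.000737) and 0.60 (adjusted p = 0.0648), so Hsph1 was no longer called and Dnaja1 was. Since WT 2 and WT 10 were singled out for their high Dnajb1, the value without them depends on that choice. Dnajb1 was called in both interactions with all libraries, but in the first not without the libraries that held liver or duct markers.

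Whether members vary together across libraries was read from their correlation with Dnajb1, over log2 CPM with the genotype means removed. Of 123 relations over the 3 sets none passed Benjamini-Hochberg adjustment, by Pearson or by Spearman with permutation within genotype. The strongest was that of the ER gene Hspa13 in pgWAT at 1 h, with r = -0.71 (permutation p = 0.00232, adjusted 0.285), rho = -0.73 (permutation p = 0.00164, adjusted 0.202) and r = -0.60 without the 2 libraries farthest in Dnajb1 (n = 18). In quadriceps, over the 18 libraries other than WT 2 and WT 10, Hspa1a had r = 0.57 (permutation p = 0.0118, adjusted 0.47), rho = 0.56 (permutation p = 0.0171, adjusted 0.68) and r = 0.66 without the 2 farthest. Hspa1b had r = 0.53 (permutation p = 0.0263, adjusted 0.47), rho = 0.57 (permutation p = 0.0183, adjusted 0.68) and r = 0.58 without the 2 farthest. WT 2 and WT 10 were singled out for high levels of these same genes, so these values depend on that choice. In pgWAT, Hspa1a had r = 0.25 at 1 h and 0.13 at 6 h, and Hspa1b 0.08 and 0.46. Hspa2 at 1 h had r = 0.61 (permutation p = 0.0117, adjusted 0.47).

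More members differed between the 2 tissues than between the genotypes of any set, and the same held for all genes. In WT libraries of quadriceps and of pgWAT at 1 h, which share a library kit but differ in tissue and clamp, 35 of 43 members (81.4%) were higher in quadriceps and 5 (11.6%) lower, against 40.2% and 40.6% of 10319 genes. The median log2 of quadriceps over pgWAT was 1.5 over members and 0.00 over all genes. CPM here are scaled over both tissues and so differ slightly from those above. All 7 small heat shock genes were higher in quadriceps. Hspb6, a small heat shock protein of muscle, had 1093 ± 256 CPM in quadriceps (SD, n = 10) and 16.5 ± 4.38 CPM in pgWAT (SD, n = 9). Its log2 difference was 5.99 (SE 0.17, edgeR adjusted p = 7.32e-21). Hspb2 had 65.7 ± 9.26 and 3.67 ± 1.11 CPM, and Cryab 1219 ± 556 and 118 ± 27.1 CPM, differences of 4.05 (SE 0.15) and 3.34 (SE 0.22). Hspb7, Hspb1 and Hspb8 were higher by 2.84, 2.62 and 1.97. Cryab and Hspb2 start 1029 bases apart on opposite strands of chromosome 9 with exons that overlap in the annotation, and the strand setting of the counting was not given in the sources used here. Hspb3, a small heat shock protein of muscle, had 465 counts in the 10 quadriceps libraries and 1 in the 9 of pgWAT, a ratio of 653 relative to library totals with a 95% exact interval of 117 to 25850 that covers counting error only.

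Among the 5 ER chaperones, Hspa5, Hsp90b1 and Hspa13 were lower in quadriceps, at -0.38, -0.44 and -0.54, Dnajb9 was higher at 1.35, and Dnajb11 was not called. Hspa2 and Hspa4l were the other 2 lower members, at -0.82 (SE 0.31) and -0.68 (SE 0.16). All 5 mitochondrial members were higher, at 0.60 to 2.04, as were both heat shock factors, Hsf1 at 2.0 (SE 0.14) and Hsf2 at 1.47 (SE 0.09), and all 3 BAG genes, with Bag3 at 2.28 (SE 0.12). The J-domain gene Dnajb5 was higher by 5.46 (SE 0.39). Hsp90aa1, Dnaja1 and Dnajb11 were not called. Without the WT libraries with liver or duct markers and without WT 2 and WT 10 of quadriceps, 34 members were called higher and 6 lower, since Hspa2 and Dnajb1 were no longer called and Hsp90aa1 and Dnaja1 were called lower. The share of all genes called in this reduced fit was not taken. With all libraries it was 40.2% higher and 40.6% lower.

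**Figure D5:**
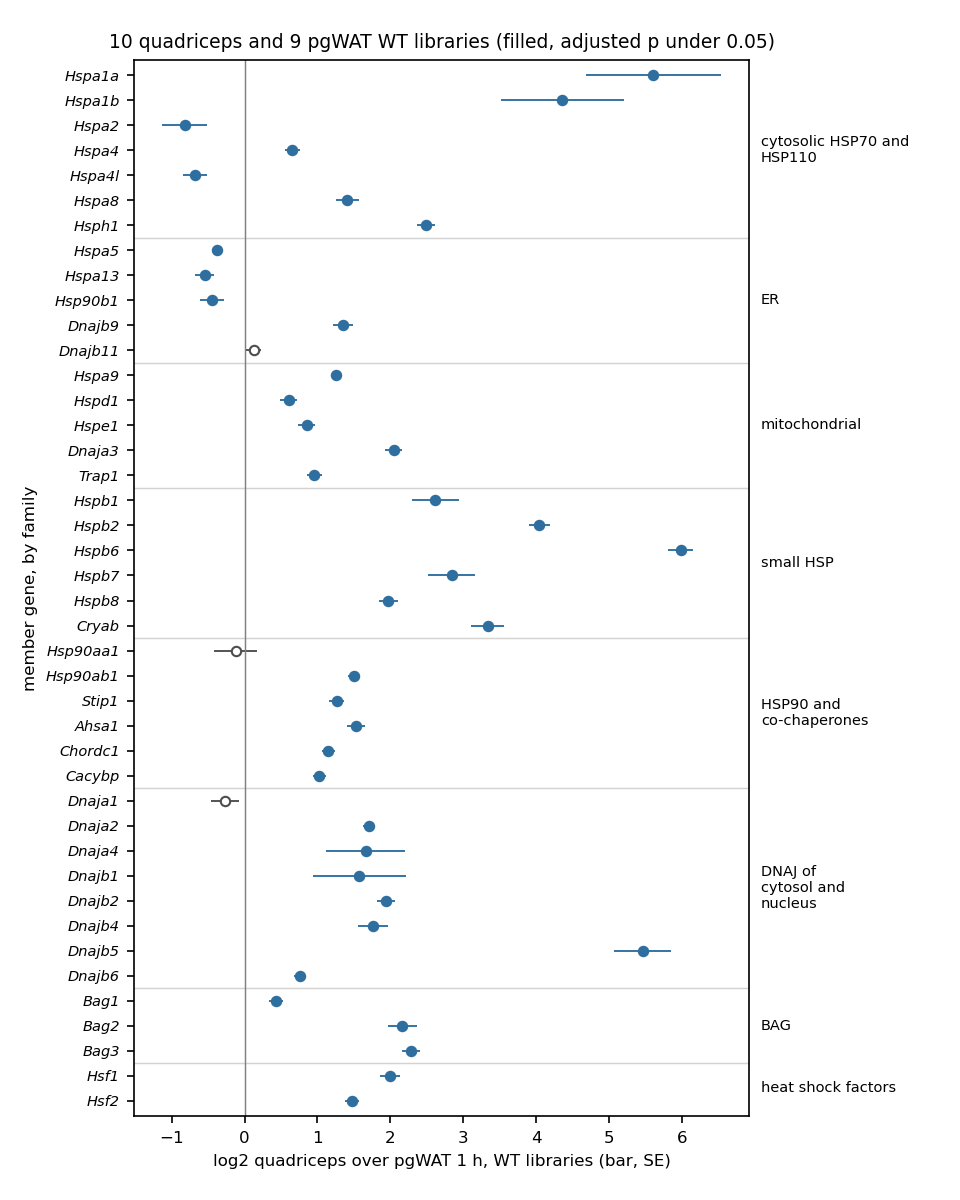
Log2 of quadriceps over pgWAT at 1 h (horizontal axis, bar SE) for 42 members (vertical axis, by family) in 10 and 9 WT libraries, leaving out Hspb3, which had 1 count in pgWAT. Filled points have an adjusted p under 0.05, and the small heat shock genes lie between 1.97 and 5.99 while 3 of 5 ER genes lie below 0.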

How the data were processed

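RNA of quadriceps and pgWAT was measured in 50 libraries with a kit that reads the 3′ ends of mRNA. Per the labels' protocols, quadriceps and 1 h libraries carried molecular identifiers and 6 h libraries did not, so kit and time coincide in pgWAT. As deposited, each set is 1 table of unnormalized counts by gene, per the file headers. The submitters' processing notes name bcl2fastq 2.20.0.422, UMI-tools 1.1.2, cutadapt 1.18, STAR 2.7.10 and the builds GRCm39 and GRCm38. The counter, strand setting and collapsing of identifiers were not stated in the sources. The title of quadriceps TG replicate 10 (clamp) was followed over its treatment label (1 h).

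Genes passing filterByExpr were tested per set with edgeR 4.0.16 (TMM scaling, robust quasi-likelihood test), in R 4.3.3, and adjusted over all genes tested with Benjamini-Hochberg at 0.05. An SE is the log2 change divided by the root of F. Interactions and the tissue comparison were fitted over 2 sets together. The scripts were tested on simulated data. Alternatives were DESeq2 1.42.0, limma 3.58.1 (voom), other scaling, no filter, a replicate block, leaving out libraries, and Hspa1a and Hspa1b summed. At this depth 3 counts are worth 1.15 to 3.13 CPM in quadriceps, 0.618 to 3.07 CPM at 1 h and 0.233 to 0.328 CPM at 6 h, which covers counting error only.

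Members, families and lists were chosen with earlier results of these data known. Values by library are given for members called in any set, the 3 with the smallest p in each set, and always Hspa1a, Hspa1b, Dnajb1, Hsph1, Bag3 and Hsf1, and up to 3 genes of each other list are named. Hspb7, Hspa5, Hspa2 and Dnaja4 at 1 h, Cryab and Hsp90aa1 are described beyond this rule, after their values were seen.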

Additional observations from a re-analysis of the deposited data

Results flagged for a closer look

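In 8 of 78 groups of members and genotypes looked at, 1 library lay further from the others than Dixon's limit allows. The limit's rate of 1 in 20 does not apply here. The groups share libraries, and their members were chosen with results of these data known. The count was therefore not weighed against chance. In quadriceps of WT mice, library WT 2 was apart in Bag3 (723 CPM, next 458), Dnajb1 (453 CPM, next 158) and Hspb1 (770 CPM, next 460), and WT 7 in Hspa2 (15.8 CPM, next 10.6). Among TG quadriceps libraries, TG 2 was apart in Hsph1 (152 CPM, next 121). In pgWAT at 1 h, WT 9 was apart in Hspa2 (78.1 CPM, next 26.1) and Dnaja4 (170 CPM, next 83.7). At 6 h, TG 5 was apart in Dnajb1 (74.9 CPM, next 51.7).

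Genotype differences that differed between sets by an edgeR interaction test were those of Dnajb1 (0.89) and Chordc1 (-0.42) between pgWAT at 6 h and 1 h, and those of Dnajb1 (3.41), Dnaja4 (1.16) and Hsph1 (0.61) between pgWAT at 6 h and quadriceps. The part of kit, clamp and marker-bearing libraries in them was not tested.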

How the results depend on the processing

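The direction of each of the 14 member changes followed was the same under every alternative run. Their side of the threshold was the same in 271 cases, lost in 36 and gained in 4. In quadriceps, where edgeR called 0 members, DESeq2 called 3 (Hspa1b, Dnajb1, Dnaja1), no filter called 1 (Dnaja4), leaving out WT 2 and WT 10 called 1 (Dnajb1), and leaving out 1 library called 0 to 1. Of all genes there, edgeR called 2.03%, DESeq2 2.28%, and edgeR without WT 2 and WT 10 1.84%. With 1 library left out, 123 to 198 genes were called. At 6 h the 8 called members became 5 without scaling and 5 without the filter, and 4 to 7 with 1 library left out. Over all 14359 genes, 2071 were called at first. Without scaling 665 were called higher and 1457 lower, and 1666 to 2091 were called with 1 library left out. Shares of all genes without the filter are not given here. The members that differed between 6 h and 1 h went from 2 to 1 with RLE size factors, 0 without the filter and 0 without the libraries in doubt, and 0 to 2 with 1 library left out. Shares of all genes under these interaction fits are not given here. The cause of these changes in call was not tested.

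With the replicate number as a replicate block, 0, 0 and 8 members were called in quadriceps, at 1 h and at 6 h (Hsph1 in, Dnaja2 out). Shares of all genes with this block are not given here. Same-numbered libraries did not deviate together as a rule, with correlations of -0.18 to 0.20, -0.18 to 0.37 and -0.09 to 0.11. The medians were -0.01, -0.06 and 0.02, and 3 of 10, 4 of 9 and 1 of 6 pairs were over 0.1. The numbers were not taken as pairs. Of 10, 9 and 6 TG libraries, 1, 2 and 2 correlated best with their own number. Depth limits the 1 h and quadriceps sets most, where 3 counts are worth up to 3.07 and 3.13 CPM.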
